A study of Homo sapiens with 6 samples.

Results

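The genes described here are 10 death ligands and death receptors of the tumour necrosis factor (TNF) family, chosen by name: the ligands TNFSF10, FASLG, TNF and LTA and the receptors TNFRSF10A, TNFRSF10B, TNFRSF10D, FAS, TNFRSF1A and TNFRSF1B. All 10 had a row among the 36601 genes of the count table, and 9 of them were among the 12263 genes with enough counts to be tested. The measurements are gene counts from RNA-seq of NK92, a human NK cell lymphoma line kept in IL-2, and both groups had been treated for 12 h with IL-2 (1000 U/mL) together with IL-12 (10 ng/mL). The control group (shCtrl) stably carried a control shRNA and the other group (shmiR155HG) stably carried an shRNA against the lncRNA miR155HG, with 3 libraries in each group. Each group is a single derived line as far as the labels say, and they do not say whether its libraries came from separate cultures, so p-values measure the spread between these libraries only. For shmiR155HG replicates 2 and 3 the treatment label carries another number in the gene's name, and their titles, which name shmiR155HG, were followed.

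NK cells kill a target by releasing granules and also by death ligands on their surface or in secreted form. FASLG binds FAS, and TNFSF10 (TRAIL) binds TNFRSF10A and TNFRSF10B, which recruit the adaptor FADD and caspase-8 through a death domain inside the cell, whereas TNFRSF10D is a decoy with a truncated death domain. TNF and LTA bind TNFRSF1A, which has a death domain, and TNFRSF1B, which lacks one and signals through TRAF proteins. Activated NK cells also carry several of these receptors, so both sides of the pathway can be measured in the same cell.

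The libraries held 33454786 to 39157264 counts each, and values of single libraries are given in the order of replicates 1, 2 and 3. Counts of the targeted gene MIR155HG were 73, 67 and 62 with the control shRNA and 28, 19 and 10 with shmiR155HG, for a log2 fold change of −1.78 (adjusted p = 0.00450 in the quasi-likelihood test of edgeR, SE 0.43). Of 10 NK cell markers, 9 were above 1 CPM (counts per 1000000 counts of the genes tested, scaled by TMM), with CD7 below, and GZMB, PRF1 and NCR3 were lower and IL2RB and KLRC1 higher in shmiR155HG cells. Of the T cell markers TRAC alone exceeded 1 CPM, of the myeloid markers CSF1R and ITGAM did, and none of the B cell, erythroid or epithelial markers did. ITGAM was lower in shmiR155HG cells, with a log2 fold change of −0.60 and overlapping groups (adjusted p = 0.0161 in the quasi-likelihood test, SE 0.17). CSF1R (−0.47, adjusted p = 0.234 in the same test) and TRAC (0.0002, adjusted p = 0.999) did not pass. The summed NK cell markers ranged from 4008 to 4042 CPM in shCtrl and from 3541 to 3679 CPM in shmiR155HG libraries. Within that sum, group means went from 1195 to 543 CPM for GZMB and from 1006 to 1270 CPM for IL2RB. The lower sum is therefore not a shared fall of the NK cell markers. The summed myeloid markers ranged from 12.2 to 20.8 CPM in shCtrl and from 10.7 to 13.8 CPM in shmiR155HG libraries. The part of these markers in the results was not tested. In RNA from a whole culture, fewer cells that express a gene and less RNA per cell cannot be told apart.

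Divided by the length of the canonical transcript, the levels of the 10 genes fell into separate tiers. In shCtrl cells LTA was highest with 405 ± 20.6 CPM per kb (SD, n = 3), followed by TNFRSF1B with 206 ± 7.19 CPM per kb. FASLG, TNF and TNFRSF1A followed between 38.8 and 45.4 CPM per kb, where TNF overlapped both of the others and could not be ordered against either, and FASLG stayed just above TNFRSF1A. TNFRSF10B lay below with 9.85 ± 0.447 CPM per kb. FAS, TNFRSF10A and TNFSF10 were the lowest of the genes detected, with 2.99, 2.48 and 2.37 CPM per kb and overlapping libraries. TNFRSF10D was at 0 in every library. The order was the same in shmiR155HG cells, where FASLG, with 49.0 to 51.0 CPM per kb, no longer overlapped TNF, with 41.5 to 46.2 CPM per kb, and FAS no longer overlapped TNFRSF10A.

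**Figure D1:**
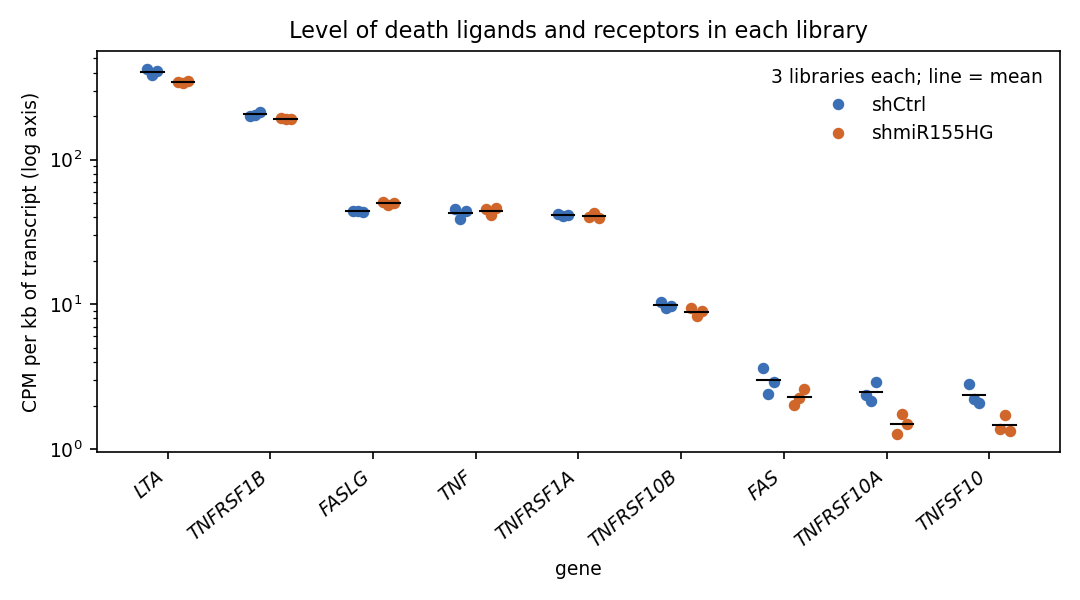
Level of each detected gene in CPM per kb of canonical transcript (log axis) in 3 shCtrl and 3 shmiR155HG libraries, with a line at each group mean. LTA and TNFRSF1B stand above all others in both groups, and FAS, TNFRSF10A and TNFSF10 lie below TNFRSF10B in every library.

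The comparison asks which genes differ between shmiR155HG and shCtrl cells, both cytokine-treated NK92 cells. Whether a difference comes from the loss of miR155HG or from another difference between the derived lines was not tested. Of the 9 genes tested, TNFRSF10A, LTA and TNFRSF1B were lower and FASLG was higher in shmiR155HG cells at an adjusted p under 0.05, whereas TNFSF10, TNF, TNFRSF10B, FAS and TNFRSF1A did not pass. That is 3 of 9 lower against 8.02% of all genes tested, 1 of 9 higher against 7.26%, and 4 of 9 in either direction against 15.3%. For 6 of the 9 genes the groups did not overlap, against 30.8% of all genes tested. The log2 fold changes ran from −0.72 for TNFRSF10A to 0.19 for FASLG, with a median of −0.15 over the 9 genes and 0.0010 over all genes tested. By an exact test in edgeR with the thresholds of the study's methods (a fold change over 1.2 and p under 0.01 before adjustment), 2 of 9 genes were called, TNFRSF10A and TNFSF10, against 8.29% of all genes. The list was assembled with earlier results of these data known, so these shares describe the 9 genes and nothing more.

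**Figure D2:**
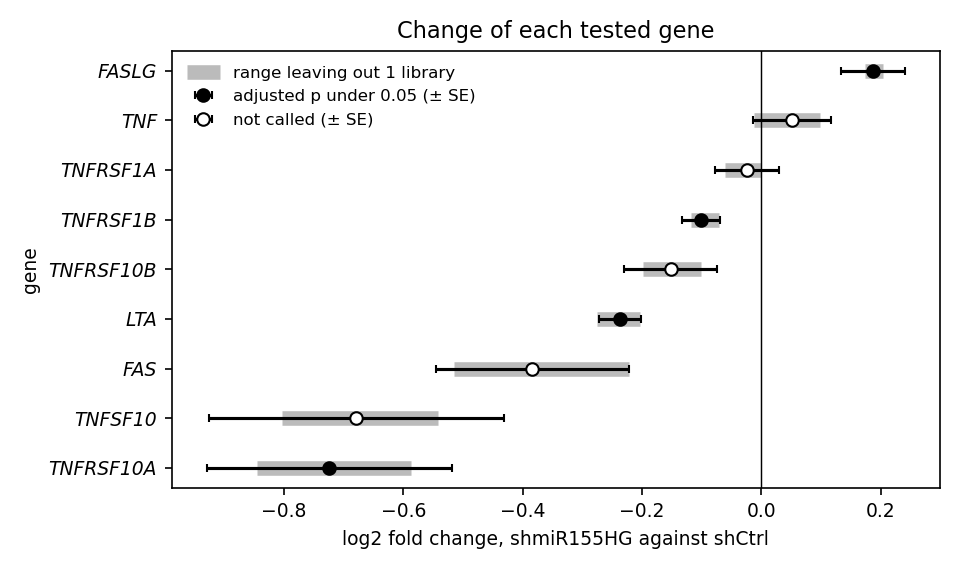
Log2 fold change of each of the 9 tested genes in shmiR155HG against shCtrl cells, with its SE (thin bars) and the range when 1 of the 6 libraries is left out (grey). Filled points are called at an adjusted p under 0.05, and the genes of lowest count, TNFRSF10A, TNFSF10 and FAS, have the widest bars.

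TNFSF10 encodes TRAIL, which kills cells that carry its death domain receptors. Its gene is on the minus strand of chromosome 3, at positions 172505508 to 172523475 (hg38). Its level was 5.24, 4.19 and 3.90 CPM in the shCtrl libraries, against 2.58, 3.23 and 2.51 CPM in the shmiR155HG libraries. The highest shmiR155HG library stayed under the lowest shCtrl library. The log2 fold change was −0.68 (adjusted p = 0.0634 in the quasi-likelihood test, SE 0.25), which missed the threshold. It passed in DESeq2 (adjusted p = 0.0409) and by the exact test with the study's thresholds (unadjusted exact p = 0.00801), and the adjusted p lay between 0.0409 and 0.267 over the alternatives. TNFSF10 rested on 84 to 204 counts per library.

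TNFRSF10A encodes the TRAIL receptor DR4 and was lower in shmiR155HG cells. Its level was 6.35, 5.78 and 7.85 CPM in the shCtrl libraries, against 3.41, 4.68 and 4.01 CPM in the shmiR155HG libraries. The highest shmiR155HG library, replicate 2, stayed below the lowest shCtrl library, also replicate 2. The log2 fold change was −0.72 (adjusted p = 0.0153 in the quasi-likelihood test, SE 0.21), and the fitted level fell by 39.5%. The direction held under every alternative, from −0.85 to −0.59, but the adjusted p rose to 0.0991 without shCtrl replicate 3, to 0.0797 without shmiR155HG replicate 1 and to 0.0503 without shmiR155HG replicate 3. An antisense gene, TNFRSF10A-AS1, had 10 to 32 counts in shCtrl and 7 to 15 in shmiR155HG libraries, and a divergent lncRNA (AC100861.1) that overlaps the gene on the other strand had 94 to 118 and 82 to 123. TNFRSF10A itself had 211 to 306 and 131 to 178 counts, and because the strand setting of the counting is not given in the sources used here, reads from either side could have been exchanged.

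TNFRSF10B encodes DR5, the other death domain receptor for TRAIL. It had 41.4, 38.0 and 38.7 CPM in the shCtrl libraries, against 37.68, 32.97 and 35.70 CPM in the shmiR155HG libraries. The groups did not overlap, but the highest shmiR155HG library lay just under the lowest shCtrl library. The log2 fold change of −0.15 (adjusted p = 0.209 in the quasi-likelihood test, SE 0.078) did not pass. The gene shares its place with RHOBTB2 on the opposite strand, which had a log2 fold change of 0.24 (adjusted p = 0.329 by edgeR, SE 0.15).

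TNFRSF10D, the decoy receptor DcR2, had 0 counts in each of the 6 libraries, which allows a level of up to 0.0770 to 0.0897 CPM (3 counts per library, counting error only). The decoy TNFRSF10C (DcR1), its near relative, was detected, with 168, 173 and 205 counts in the shCtrl libraries against 238, 166 and 171 in the shmiR155HG libraries. Its log2 fold change was 0.13 (adjusted p = 0.746 in the quasi-likelihood test, SE 0.21), with overlapping groups. The 4 TRAIL receptor genes are paralogs that lie side by side within 205 kb, at positions 23020133 to 23225102 of chromosome 8 (hg38), so reads of stretches that they share could have been assigned to the wrong copy.

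FASLG encodes Fas ligand, the main death ligand of cytotoxic lymphocytes. Its gene is on the plus strand of chromosome 1, at positions 172659103 to 172666876 (hg38), and overlaps no other annotated gene. Its level was 79.7, 79.7 and 78.6 CPM in the shCtrl libraries, against 92.0, 88.4 and 90.6 CPM in the shmiR155HG libraries. The shCtrl libraries were nearly equal, and every shmiR155HG library lay above them. The rise was 13.9%, a log2 fold change of 0.19 (adjusted p = 0.0163 in the quasi-likelihood test, SE 0.054). Without shmiR155HG replicate 1 the log2 fold change was 0.17 and the adjusted p 0.0638, and the rise was under the 1.2-fold limit used with the exact test.

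FAS, the receptor of FASLG and a route by which activated lymphocytes are themselves removed, was weakly expressed. Its gene is on the plus strand of chromosome 10, at positions 88953813 to 89029605 (hg38). Its level was 13.4, 8.91 and 10.8 CPM in the shCtrl libraries, against 7.48, 8.33 and 9.60 CPM in the shmiR155HG libraries. The groups overlapped, since shmiR155HG replicate 3 lay above shCtrl replicate 2. The log2 fold change of −0.38 (adjusted p = 0.115 in the quasi-likelihood test, SE 0.16) did not pass. It moved to −0.22 without shCtrl replicate 1, the library with the highest level. Without shCtrl replicate 2, the lowest of the shCtrl libraries, it moved to −0.51 (adjusted p = 0.0532 by edgeR). The annotated FAS gene overlaps STAMBPL1 on the same strand, which had a log2 fold change of −0.17 (adjusted p = 0.148 by edgeR, SE 0.078) and many more counts, 1536 to 2097 per library, so a share of the reads of 1 gene may stand under the other.

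LTA encodes lymphotoxin alpha, which as a secreted trimer binds the same receptors as TNF. Its gene is on the plus strand of chromosome 6, at positions 31572054 to 31574324 (hg38), in the major histocompatibility complex, 1240 bases ahead of TNF. Its level was 599, 542 and 581 CPM in the shCtrl libraries, against 490, 480 and 492 CPM in the shmiR155HG libraries. The shmiR155HG libraries were close to each other, and each was lower than any shCtrl library. LTA fell by 15.1% by the fitted value, a log2 fold change of −0.24 (adjusted p = 2.06e-05 in the quasi-likelihood test, SE 0.035), the smallest adjusted p of the 9 genes. With 16445 to 23296 counts per library, it was among the most precisely measured of them. It kept an adjusted p under 0.05 in every alternative that adjusts p, at most 0.00189. In the exact test its change was below the 1.2-fold limit. The log2 fold change was −0.29 with the GC correction (adjusted p = 5.85e-07 by edgeR) and −0.28 without shCtrl replicate 2, both beyond that limit.

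Because the study concerns JAK–STAT signalling, promoters were searched for a pair of motifs, in RefSeq windows (GRCh38.p14) from 250 bases before to 50 after a transcription start. Windows were at hand for 7 of the 10 genes. The palindromic STAT motif TTCNNNGAA, where N is any base, was present in 2 of the 10 windows of these genes, both of LTA, against 7.66% of all windows. These 2 windows overlap and share the match at 31572087 to 31572095, so by gene the motif was in 1 of 7. The letters GGANTTTCC, a narrow form of the NF-kB motif, were on either strand in 0 of the 10, against 1.64% of all windows. Other forms of that motif were not searched, so the count does not show that these promoters lack NF-kB sites. The LTA window at chr6:31571849-31572148, plus strand, is printed because it holds matches to the STAT motif, at 31571948 to 31571956 and 31572087 to 31572095, shown in capitals.
LTA promoter: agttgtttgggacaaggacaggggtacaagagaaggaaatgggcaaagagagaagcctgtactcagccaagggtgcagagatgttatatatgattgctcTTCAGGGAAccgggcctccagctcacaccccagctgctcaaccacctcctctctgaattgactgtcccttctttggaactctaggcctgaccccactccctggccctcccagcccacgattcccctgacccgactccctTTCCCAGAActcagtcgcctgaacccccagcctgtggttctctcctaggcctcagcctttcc
These letters are a description of the sequence, and binding of a STAT protein was not measured here.

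TNF, the best known cytokine of the family, is the next gene on chromosome 6, from 31575565 to 31578336. Its level was 76.2, 65.1 and 74.1 CPM in the shCtrl libraries, against 76.1, 69.6 and 77.6 CPM in the shmiR155HG libraries. The groups overlapped almost completely. The log2 fold change was 0.052 (adjusted p = 0.670 in the quasi-likelihood test, SE 0.065), and its sign turned without shCtrl replicate 2, the library with the lowest level (−0.012).

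TNFRSF1A, the death domain receptor for TNF and LTA, is on chromosome 12, at positions 6328757 to 6342114 of the minus strand (hg38). It had 90.9, 89.2 and 90.5 CPM in the shCtrl libraries, against 86.7, 93.4 and 86.1 CPM in the shmiR155HG libraries. The groups overlapped, and the log2 fold change was −0.023 (adjusted p = 0.833 in the quasi-likelihood test, SE 0.054). TNFRSF1B, the receptor without a death domain, is on chromosome 1, at positions 12166991 to 12209228 of the plus strand. It had 741, 749 and 791 CPM in the shCtrl libraries, against 714, 705 and 706 CPM in the shmiR155HG libraries. The groups did not overlap and the fitted level fell by 6.80%, a log2 fold change of −0.10 (adjusted p = 0.0286 in the quasi-likelihood test, SE 0.032). This was the smallest change among the genes called, and its call rested on most of the libraries: the adjusted p was 0.0592 without shCtrl replicate 2, 0.115 without shCtrl replicate 3, and 0.0651, 0.114 and 0.103 without shmiR155HG replicates 1, 2 and 3. With a correction for GC content the log2 fold change was −0.17 (adjusted p = 0.000137 by edgeR).

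Ratios of counts within a library do not depend on how libraries are scaled, and 6 were formed from related genes after their values were seen. LTA stood at 7.86, 8.32 and 7.85 counts per TNF count in shCtrl replicates 1, 2 and 3 and at 6.44, 6.89 and 6.34 in shmiR155HG replicates 1, 2 and 3. The ratio thus separated the groups completely (p = 0.1 in a two-sided exact permutation test, which cannot go lower with 3 against 3, and 0.2 after Benjamini-Hochberg adjustment over the 6 ratios). TNFRSF10A stood at 0.153, 0.152 and 0.203 counts per TNFRSF10B count in shCtrl and at 0.0906, 0.142 and 0.112 in shmiR155HG libraries, again without overlap and with the same p. Against the decoy TNFRSF10C it went from 1.39 ± 0.152 to 0.802 ± 0.261 (SD, n = 3), also with the same p from the exact test. The ratio of TNFRSF1B to TNFRSF1A was 8.43 ± 0.295 in shCtrl cells (SD, n = 3) and from 7.55 to 8.23 in the shmiR155HG libraries, and the groups overlapped (exact permutation p = 0.3, adjusted 0.36). So did the ratios of LTB to TNF (exact permutation p = 0.2, adjusted 0.3) and of LTA to LTB (0.4 and 0.4).

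**Figure D3:**
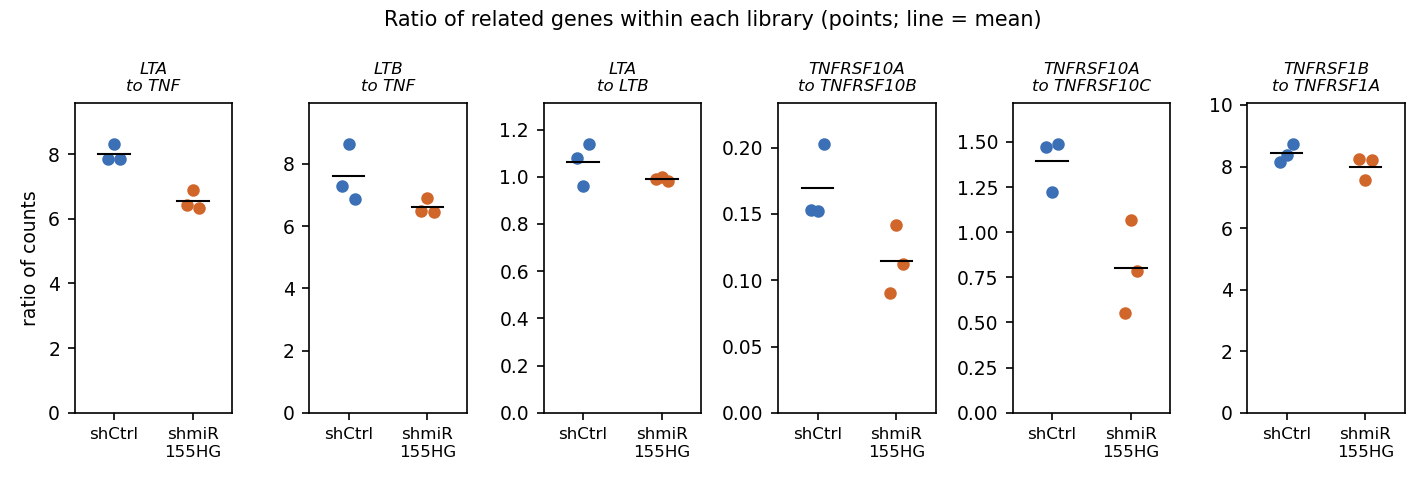
Ratios of the counts of related genes in each library (points, from 0 on a linear axis), with a line at the mean of 3 shCtrl (blue) and 3 shmiR155HG (orange) libraries. The groups are apart for LTA to TNF, TNFRSF10A to TNFRSF10B and TNFRSF10A to TNFRSF10C, and overlap in the other panels.

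Around the ligands and receptors, 5 lists with 56 genes of the pathway were chosen by role, of which 48 were tested. At an adjusted p under 0.05, 2 rose and 4 fell, 12.5% of those tested against 15.3% of all genes, with a median log2 fold change of 0.028. None of the 7 tested adaptors, initiator caspases and necroptosis genes passed in the quasi-likelihood test, DESeq2, limma-voom or the exact test rule, and 0 had an unadjusted p under 0.05 in any of these tests. Log2 fold changes were 0.018 for FADD (SE 0.078), −0.077 for CASP8 (SE 0.070) and 0.036 for CFLAR, which blocks caspase-8 at the receptor (SE 0.035). RIPK3, the kinase of necroptosis, had 0 counts in every library.

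Of the 19 genes of the TNF receptor complex and its ubiquitin machinery, 2 rose. BIRC2, a ubiquitin ligase (cIAP1) that holds back death signals from TNFRSF1A, went from 67.3 ± 3.61 to 78.4 ± 3.33 CPM (SD, n = 3), a log2 fold change of 0.22 (adjusted p = 0.0127 in the quasi-likelihood test, SE 0.061). TRAF3, a partner of cIAP1 in the turnover of NF-kB-inducing kinase, had a log2 fold change of 0.15 (adjusted p = 0.0168 by edgeR, SE 0.044). Both calls were fragile, since the adjusted p of BIRC2 was 0.0569 without shCtrl replicate 3, 0.0583 without shmiR155HG replicate 2 and 0.0698 without shmiR155HG replicate 3. That of TRAF3 was 0.0953 without shCtrl replicate 1, 0.149 without shmiR155HG replicate 2 and 0.0737 with the GC correction. TNFAIP3 (A20), a deubiquitinase that ends the TNF signal, had a log2 fold change of 0.15 (adjusted p = 0.180 by edgeR, SE 0.075).

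Of the 8 executioner genes tested, DFFA alone passed. It encodes ICAD, the chaperone and inhibitor of the nuclease that cuts DNA in apoptosis, and it went from 216 ± 7.05 to 170.0 ± 3.43 CPM (SD, n = 3), a log2 fold change of −0.35 (adjusted p = 3.41e-07 in the quasi-likelihood test, SE 0.040). It stayed past the threshold under every alternative, and the nuclease itself, DFFB, had a log2 fold change of 0.20 (adjusted p = 0.381 by edgeR, SE 0.14).

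Of the 8 tested genes of shedding and decoys, SPPL2A alone passed. It encodes a membrane protease that cuts the stubs left in the membrane after TNF and Fas ligand are shed, and its log2 fold change was −0.19 (adjusted p = 0.00299 in the quasi-likelihood test, SE 0.043), or −0.12 with the GC correction (adjusted p = 0.0558 by edgeR). The sheddases ADAM10 and ADAM17 had log2 fold changes of −0.063 (SE 0.045) and −0.048 (SE 0.063). TNFRSF6B, a soluble decoy for Fas ligand, had 6.272, 6.004 and 6.595 CPM in the shCtrl libraries, against 6.65, 7.83 and 8.31 CPM in the shmiR155HG libraries. The groups did not overlap, but the log2 fold change of 0.27 did not pass (adjusted p = 0.333 by edgeR, SE 0.17).

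Among the 6 tested genes of the remaining receptors and lymphotoxin relatives, TNFSF14 and LTB fell. TNFSF14 (LIGHT), a ligand of TNFRSF14 and of the lymphotoxin beta receptor, went from 84.5 ± 4.59 to 69.1 ± 3.45 CPM (SD, n = 3), a log2 fold change of −0.29 (adjusted p = 0.00110 in the quasi-likelihood test, SE 0.060), and passed under every alternative. LTB encodes lymphotoxin beta, which anchors LTA at the cell surface, and it is the neighbour of TNF on the other side, 2188 bases away. Its level was 554, 563 and 510.0 CPM in the shCtrl libraries, against 495, 481 and 500 CPM in the shmiR155HG libraries. The groups did not overlap, with a log2 fold change of −0.14 (adjusted p = 0.00739 in the quasi-likelihood test, SE 0.036). The adjusted p was 0.0844 without shCtrl replicate 2 and 0.0759 without shmiR155HG replicate 2, and the log2 fold change was −0.24 with the GC correction (adjusted p = 0.000336 by edgeR). LTBR, the receptor of LTB and TNFSF14, had 0 counts in every library.

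**Figure D4:**
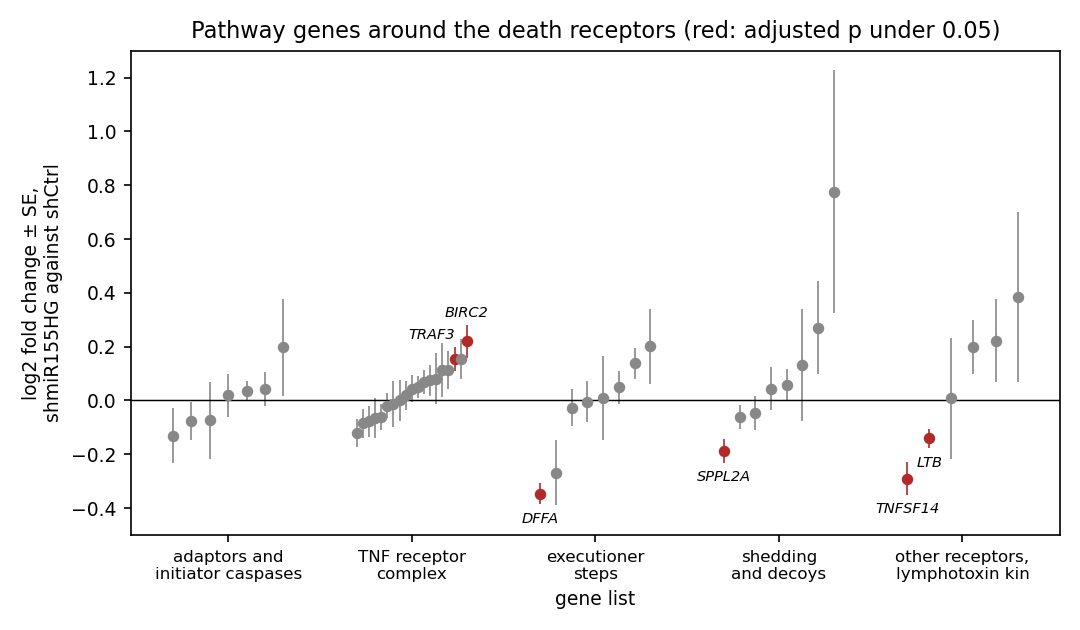
Log2 fold change (± SE) in shmiR155HG against shCtrl cells of the 48 tested genes of 5 pathway lists, each point a gene and each column a list. BIRC2 and TRAF3 (higher) and DFFA, SPPL2A, LTB and TNFSF14 (lower) are called at an adjusted p under 0.05 and named in red.

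miR155HG is the host transcript of miR-155, so the 3′UTRs of the 10 genes were searched for the reverse complement of the seed (positions 2 to 8) of both arms of miR-155. miR-6756-5p, the arm for which the study lists a primer, was not analysed here, and the search says nothing about it. The mature sequences (RefSeq, GRCh38.p14) are shown with the seed in capitals.
hsa-miR-155-5p: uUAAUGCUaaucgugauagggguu
hsa-miR-155-3p: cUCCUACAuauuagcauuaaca
The site of miR-155-5p, AGCATTA, was in none of the 10 3′UTRs, against 10.9% of the 18920 3′UTRs searched (canonical transcripts of genes in the count table). The site of miR-155-3p was in 1 of the 10, that of TNF, against 9.23% of all, and this match is printed on the plus strand of hg38 with the site in capitals.
TNF 3′UTR, chr6:31578069-31578097: tgggggacccaaTGTAGGAgctgccttgg
TNF did not change past the threshold, and the 4 genes that were called had no match to either seed. A match is no measure of binding.

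The 3 genes whose levels followed those of LTA most closely over the 6 libraries were SKA1 (Pearson's r = 0.996), NAP1L1 (0.995) and MSMO1 (0.993), out of 9721 genes whose mean was 5 CPM or more. The points share their libraries and their split into shCtrl and shmiR155HG, so these values are a description.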

How the data were processed

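RNA was sequenced from 3 shCtrl and 3 shmiR155HG libraries of NK92 cells after poly(A) capture, as read pairs of 150 bases. Reads were aligned by the authors (HISAT2, hg38), and the gene counts from StringTie and prepDE.py3 were deposited without normalization, and versions, annotation release and strand setting are not given in the sources used here. All 6 columns of counts were used. Floors cover counting error only, whereas an SE includes the spread between replicates. The mean chi-square between replicates was 7.35 to 10.9 per gene, where sampling noise alone gives 1 if counts are independent. Whether the counts from StringTie and prepDE.py3 are independent was not tested, and the floors assume it too.

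A gene was tested where 2 or more libraries exceeded 1 CPM of the library total, the filter of the study, and libraries were scaled with TMM. The test was edgeR's quasi-likelihood test (edgeR 4.0.16, R 4.3.3, robust) over all genes, with Benjamini-Hochberg adjustment and a threshold of 0.05. Printed CPM are counts per 1000000 counts of the genes tested, scaled by TMM, and SE is that of the log2 fold change. Transcript lengths, 3′UTRs and positions came from GENCODE 44 (hg38), whose release may differ from that of the authors. On simulated counts, the fit called 71% of 100 genes changed by a log2 fold of 0.5 in either direction. Of 98 genes changed by a log2 fold of 1, it called 86.7%, and 4.29% of all its calls were false. Smaller changes were not simulated.

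The 10 genes, the 5 pathway lists and the marker lists were chosen by name or role with earlier results of these data known. All 10 genes are named. Of each pathway list the genes with an adjusted p under 0.05 are named (at most 6), with partners of a member, and the 3 genes most like the member of smallest p. Alternatives were DESeq2 1.42.0, limma-voom (limma 3.58.1), the exact test, other scalings and filters, halved counts, a GC correction, a replicate block and leaving out each library. Leaving libraries out of the ratios was chosen after seeing the data. RefSeq sequences were searched by exact match.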

Additional observations from a re-analysis of the deposited data

How the results depend on the processing

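Scaling with DESeq2 size factors or total counts, no filter, filterByExpr, a mean of at least 5 CPM, halved counts, DESeq2 and limma-voom kept the counts of called members (1 higher and 3 lower), except DESeq2, which added TNFSF10. The median log2 fold change of all genes stayed between −0.0014 and 0.014. By the exact test with the thresholds of the study's methods, members called higher went to 0, pathway genes to 0 higher and 2 lower, and all genes to 551 higher and 466 lower, from 890 and 984. Its fold limit removes LTA, FASLG and TNFRSF1B by construction. Leaving out 1 library gave 0 to 1 members higher, 1 to 3 lower, 0 to 3 pathway genes higher and 3 to 4 lower, and 580 to 891 of all genes higher and 674 to 917 lower, lowest without shmiR155HG replicate 2. The log2 fold change of TNF ranged from −0.012 to 0.0985 when 1 library was left out. It turned negative without shCtrl replicate 2, the 1 reversal among 413 recomputed values. Some of the 413 are numbers of genes called, which have no sign, and 14 of these fell furthest relative to the main fit. Of the other values, 28 lost and 2 gained their call. Within-library ratio differences kept their sign in each fit (LTA to TNF, −0.33 to −0.26; TNFRSF10A to TNFRSF10B, −0.74 to −0.41).

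The replicate block left 1 member higher and 2 lower (TNFRSF1B, adjusted p = 0.0532 by edgeR) and 829 and 909 of all genes. The labels do not say that replicate numbers mark a shared batch or day, so the numbers were not taken as pairs. Deviations of same-numbered libraries correlated at −0.013, 0.012 and 0.020, and not every library correlated best with its own number. The block with the GC correction gave 1 higher and 3 lower. TNFSF10, TNFRSF10A and FAS, with 84 to 520 counts per library, are the least precise members, with SE of 0.16 to 0.25.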
